A study of Mus musculus with 32 samples.

Results

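The signal of 5-methylcytosine (5mC), the methylated form of cytosine in DNA, was followed over 9 mouse genes that encode components of complement: C3, Hc, C6, C8a, C8b, C9, Cfi, Mbl2 and Masp1. The genes were chosen by name, with earlier results of these data known, and each matched 1 row of a table of 27179 genes. All 9 were among the 25982 genes tested, which had at least 1 CPM (read counts scaled to the size of the library) in at least 2 libraries. The measurement was MeDIP-seq, in which an antibody against 5mC pulls down methylated single-stranded DNA fragments that are then sequenced. Brain, heart, kidney and liver of mice were either flash-frozen or kept as FFPE tissue, meaning fixed in formalin and set in paraffin wax. The study comprises 32 samples, with 2 for each organ, preservation and library type (5mC precipitate or unselected Input DNA), but the values come in 8 columns, 1 for each organ and preservation. The sources used here do not give strain, sex or age, whether replicates came from separate animals, or whether a column is 1 sample or a pool. A column is called a library below. Column names carry no antibody, and the values were read as 5mC on the strength of the table's MeDIP-seq title. Whole organs were used, so a lower share of methylated DNA in every cell and fewer cells with methylated DNA cannot be told apart.

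Complement is a set of plasma proteins that tag microbes and damaged cells and pierce their membranes. Mannose-binding lectin (Mbl2) recognises sugars on microbes and, with its protease Masp1, starts the lectin pathway. C3 is the central component on which all routes meet, and factor I (Cfi) is the protease that inactivates its active fragment C3b. Hc encodes C5, whose cleavage opens the terminal pathway, in which C6, C7, C8 (chains from C8a, C8b and C8g) and C9 assemble into the membrane attack complex. Hepatocytes make most of these proteins. In mammals most 5mC lies at CG dinucleotides, and genes that are strongly active in a tissue often carry less of it near their start than the same genes in other tissues.

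The CG dinucleotides around an annotated transcript start of 4 of the genes are shown first, because CG is the main place where 5mC can lie: C3, C8b and Mbl2, which were lower in liver, and C8a, the chromosomal neighbour of C8b, which was not called. Sequences run 5′ to 3′ from 250 bases before to 50 bases after a transcript start, from RefSeq on GRCm38.p6 (the assembly behind mm10), with each CG in capitals and the strand in parentheses.
C3, chr17:57228087-57228386 (-): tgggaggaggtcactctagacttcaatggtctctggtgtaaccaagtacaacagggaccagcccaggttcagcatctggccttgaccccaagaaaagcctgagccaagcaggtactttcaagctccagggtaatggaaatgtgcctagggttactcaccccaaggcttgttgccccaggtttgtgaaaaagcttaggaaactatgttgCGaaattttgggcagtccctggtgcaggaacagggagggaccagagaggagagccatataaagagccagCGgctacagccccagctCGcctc
C8b, chr4:104766067-104766366 (+): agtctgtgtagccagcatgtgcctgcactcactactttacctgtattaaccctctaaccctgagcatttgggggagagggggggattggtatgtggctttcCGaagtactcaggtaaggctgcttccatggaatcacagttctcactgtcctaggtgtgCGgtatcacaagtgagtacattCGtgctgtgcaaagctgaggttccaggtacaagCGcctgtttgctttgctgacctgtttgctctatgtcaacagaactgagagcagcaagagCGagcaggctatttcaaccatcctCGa
C8a, chr4:104876349-104876648 (-): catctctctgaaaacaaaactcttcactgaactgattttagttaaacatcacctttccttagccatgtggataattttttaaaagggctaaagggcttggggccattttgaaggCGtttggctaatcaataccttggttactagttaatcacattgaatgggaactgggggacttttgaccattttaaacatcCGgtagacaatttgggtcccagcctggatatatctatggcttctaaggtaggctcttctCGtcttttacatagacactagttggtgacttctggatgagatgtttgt
Mbl2, chr19:30232678-30232977 (+): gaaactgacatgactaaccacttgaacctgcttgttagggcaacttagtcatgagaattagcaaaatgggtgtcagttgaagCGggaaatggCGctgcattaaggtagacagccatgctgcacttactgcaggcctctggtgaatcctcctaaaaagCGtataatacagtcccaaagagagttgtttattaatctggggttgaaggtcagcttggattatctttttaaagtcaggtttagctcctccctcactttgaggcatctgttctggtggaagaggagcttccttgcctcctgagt
The promoter table matched 7 of the 9 members, with 1 transcript start for each. That start is the outer end of the annotated gene for C3, C8b and C9, and lies 22 bases inside it for Mbl2, 89 for C8a, 143 for C6 and 7094 for Hc. It held 3 CG in the window of C3, Hc, C8a and Mbl2, 6 in that of C6 and C8b, and 1 in that of C9. The median over 32851 promoters of 300 bases was 7, so none of the 7 windows exceeded it. A window with at most 3 CG was found in 31.4% of all promoters, with at most 6 in 47.9%, and with at most 1 in 14.1%. C8b and C8a thus differ in CG number, while C3, Mbl2 and C8a hold the same number. At least 1 CG was present in 94.6% of all promoters, and CG reads the same on both strands. The deposited values are sums over genes, so signal at these windows was not separated from signal elsewhere in the gene. Whether exons or whole genes were counted is unknown from the sources used here, and levels are therefore compared between libraries of 1 gene and not between genes.

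Reads counted on all genes numbered 2164158 to 3699218 per library. Frozen kidney had 0 reads on 2999 genes, against 880 to 2380 in the others, and the spread of its log2 values was the widest (SD 2.67, against 1.75 to 2.60). As a check of the labels, 14 of 15 hepatocyte genes were lower in liver and 0 higher, 5 of 10 neuronal genes were lower in brain and 0 higher, 4 of 10 cardiomyocyte genes were lower in heart and 0 higher, and 0 of 10 kidney tubule genes were lower or higher in kidney (limma, adjusted p under 0.05). The kidney label thus has no such check. The marker lists were also chosen with earlier results of these data known, so the check of the labels is not independent. Over all tested genes, 7.42% were lower and 11.8% higher in liver, and 12.8% lower and 8.61% higher in brain. The shares were 1.97% lower and 0.162% higher in heart, and 0.566% lower and 0.897% higher in kidney. In liver, 3 of 10 leukocyte and macrophage genes were lower and 1 higher, and 2 of 10 endothelial genes lower and 2 higher. The part of those cell types in the results below was not tested.

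Liver, the main source of these proteins, was set against the mean of brain, heart and kidney. C3, C8b and Mbl2 had less 5mC signal in liver, by 1.91-fold, 2.19-fold and 2.39-fold. The other 6 were not called. Of the 9 genes, 3 were lower and 0 higher, while over all tested genes 7.42% were lower and 11.8% higher. The median difference was -0.23 on the log2 scale, against -0.10 over all tested genes, and 6 of the 9 differences were below 0, as were 55.6% of all. Scaling moved the split over all genes: 3056 were higher and 1929 lower as reported, 1256 and 1251 after quantile normalization, and 4832 and 1240 when each library was centred on its median. The median over all genes was then 0.00 and 0.10. All tests are from limma with p-values adjusted by Benjamini-Hochberg over all tested genes. With 1 library per organ and preservation, a gene's own error measures how far an organ difference changed between frozen and FFPE tissue. The tests draw that error toward a trend over all genes, with 3 residual and 13.1 prior degrees of freedom. Spread between animals was not measured on its own.

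**Figure D1:**
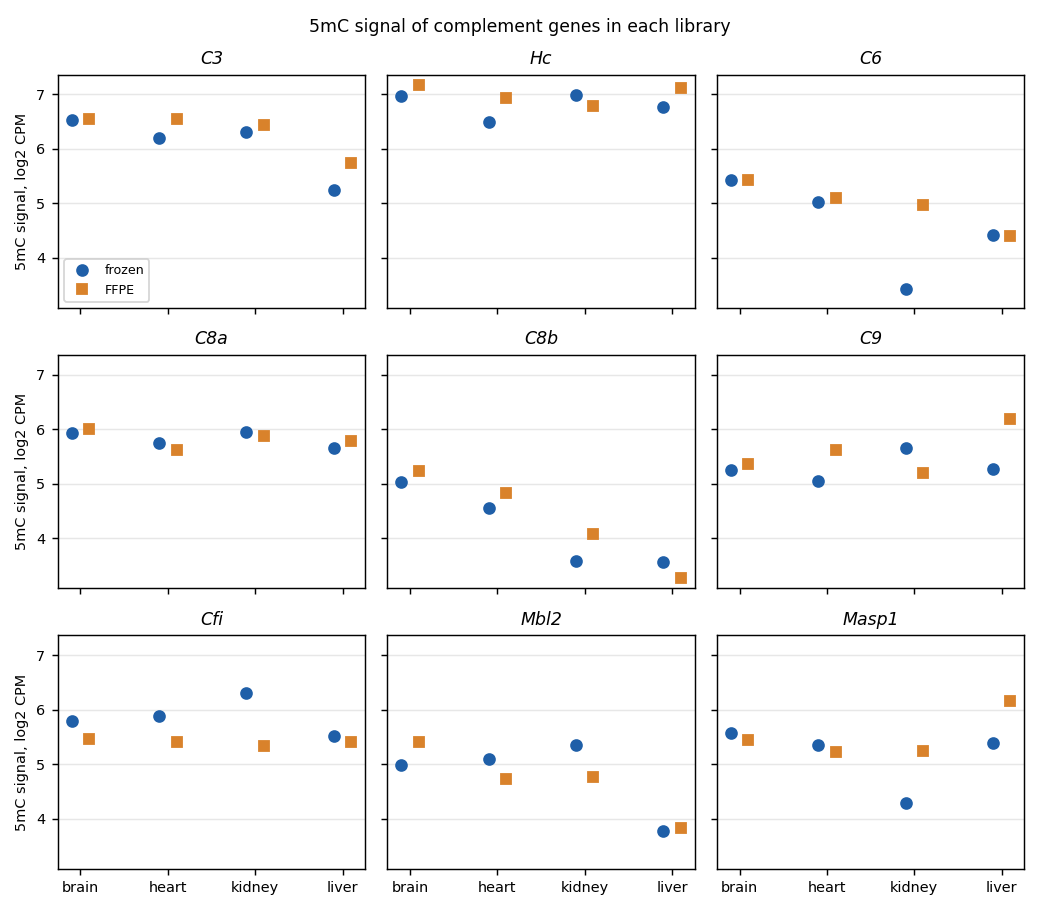
5mC signal (log2 CPM, vertical axis) of the 9 complement genes in brain, heart, kidney and liver, with 1 point for each frozen (circle) or FFPE (square) library. Both liver points of C3, C8b and Mbl2 lie below the other 6, while those of Hc, C8a, C9, Cfi and Masp1 lie among or above them, as do those of C6 beside a low frozen kidney point.

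Among the genes that start the cascade, Mbl2 (Entrez 17195, chromosome 19, 30232906 to 30239687) had 13.6 CPM in frozen and 14.2 CPM in FFPE liver, from 46 and 37 reads. It had 31.5 and 42.6 CPM in frozen and FFPE brain, 34.2 and 26.4 in heart, and 40.8 and 27.2 in kidney. Both liver libraries were below all 6 others, a pattern shared by 10.3% of tested genes. Mbl2 fell by 1.26 ± 0.26 (SE) on the log2 scale in liver (adjusted p = 0.0033). The liver difference was -1.38 within frozen and -1.14 within FFPE tissue. The highest liver value allowed by counting error alone was 19.5 CPM in FFPE liver (exact Poisson 95% limit). The lowest limit of the other libraries was 20.5 CPM, in FFPE heart. No other organ was called for Mbl2. Brain was above the mean of the others by 0.61 ± 0.26 (limma adjusted p = 0.104), and passed the threshold in 1 of 16 alternatives, without frozen kidney (0.71, adjusted p = 0.0371).

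Masp1, the protease bound to mannose-binding lectin, was not called in liver (Entrez 17174, chromosome 16, 23451785 to 23521240). It had 41.9 and 71.4 CPM in frozen and FFPE liver, 47.7 and 43.8 in brain, 40.9 and 37.1 in heart, and 19.6 and 38.0 in kidney. FFPE liver was the highest and frozen kidney the lowest, and frozen liver lay among the other organs. The liver difference was 0.58 ± 0.24 (limma adjusted p = 0.101; 95% interval 0.08 to 1.09) and did not pass the test. Without the FFPE kidney library it was 0.72 (adjusted p = 0.0159), and after median centring 0.78 (adjusted p = 0.0255). The annotated span of Masp1 overlaps that of Rtp4, and the sources used here do not say how reads in an overlap were counted.

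C3 itself (Entrez 12266, chromosome 17, 57203967 to 57228136) had 38.1 CPM in frozen and 53.6 CPM in FFPE liver, from 130 and 141 reads. It had 92.7 and 93.9 CPM in frozen and FFPE brain, 73.9 and 93.9 in heart, and 79.1 and 87.2 in kidney. Both liver libraries were the lowest, while the other 6 lay between 73.9 and 93.9 CPM. Brain was above the mean of the other organs by 0.46 (limma adjusted p = 0.0537), a difference that passed the threshold in 5 of the 16 alternatives. C3 fell by 0.94 ± 0.16 in liver (limma adjusted p = 0.001), and it fell against each single organ: by 1.05 against brain (adjusted p = 0.00117), 0.88 against heart (0.00831) and 0.88 against kidney (0.0327). It was the only member called against kidney. Its liver difference was -1.10 within frozen and -0.77 within FFPE tissue.

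Cfi, whose protein cuts C3b, had 46.0 and 42.6 CPM in frozen and FFPE liver (Entrez 12630, chromosome 3, 129836727 to 129875332). It had 55.2 and 44.1 CPM in frozen and FFPE brain, 59.1 and 42.7 in heart, and 78.8 and 40.4 in kidney. Frozen kidney was the highest. The liver difference was -0.23 ± 0.20 (limma adjusted p = 0.457; 95% interval -0.65 to 0.19), so a fall as large as the fitted one of C3 lies outside its interval.

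Hc (Entrez 15139, chromosome 2, 34983329 to 35068506), the C5 gene, had 108.8 and 139.2 CPM in frozen and FFPE liver. It had 125.7 and 144.1 CPM in frozen and FFPE brain, 90.0 and 122.1 in heart, and 127.7 and 109.9 in kidney. The liver values lay inside the range of the others, with a liver difference of 0.05 ± 0.15 (limma adjusted p = 0.853; 95% interval -0.27 to 0.38). Its sign depended on scaling: -0.35 after quantile normalization and 0.25 after median centring.

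The genes of the C8 alpha and beta chains are neighbours. C8b (Entrez 110382, chromosome 4, 104766317 to 104804548) and C8a (Entrez 230558, chromosome 4, 104815679 to 104876487) lie 11130 bases apart. C8b had 11.8 and 9.66 CPM in frozen and FFPE liver (40 and 25 reads), 12.0 and 16.8 in kidney, 23.3 and 28.4 in heart, and 32.7 and 37.5 in brain. The organs thus ran from brain, the highest, through heart and kidney to liver, and frozen kidney was as low as frozen liver within counting error. C8b fell by 1.13 ± 0.29 in liver (limma adjusted p = 0.013), by 1.71 against brain (adjusted p = 0.00231) and by 1.27 against heart (adjusted p = 0.0297). The difference from kidney, -0.41 (95% interval -1.17 to 0.35), was not called (adjusted p = 0.59). C8a had 50.4 and 55.1 CPM in frozen and FFPE liver, 61.5 and 58.8 in kidney, 53.5 and 49.4 in heart, and 61.1 and 64.1 in brain. Its 8 values spanned only 0.37 on the log2 scale, the narrowest range of the 9 genes, and its liver difference was -0.13 ± 0.17 (limma adjusted p = 0.632; 95% interval -0.49 to 0.23). That difference was -0.31 after quantile normalization and 0.06 after median centring. The annotated span of C8a overlaps that of Fyb2.

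The log2 ratio of C8b to C8a within a library, compared only between libraries, was -2.09 and -2.51 in frozen and FFPE liver and -2.36 and -1.81 in kidney. The values were -1.20 and -0.80 in frozen and FFPE heart and -0.90 and -0.77 in brain. The 4 liver and kidney values were below the 4 heart and brain values, and the liver and kidney values overlapped. The difference of liver from the 6 other libraries in this ratio did not pass its test, with p = 0.107 (exact permutation over 28 splits, two-sided, smallest possible p = 0.0357), a comparison chosen after its values were seen. The splits treat the 8 libraries as interchangeable and ignore that each organ gave 1 frozen and 1 FFPE library. Most splits mix organs, so no conclusion on an organ difference is drawn from this p.

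C6 (Entrez 12274, chromosome 15, 4727067 to 4804045) and C9 (Entrez 12279, chromosome 15, 6445346 to 6498825) encode further parts of the membrane attack complex. C6 had 21.5 and 21.0 CPM in frozen and FFPE liver, 10.8 and 31.4 in kidney, 32.5 and 34.3 in heart, and 43.1 and 42.9 in brain. Frozen kidney stood far below the other libraries. The liver difference of C6 was -0.49 ± 0.30 (limma adjusted p = 0.28), and without the frozen kidney library it was -0.74 (adjusted p = 0.0129). C9 had 38.4 and 72.5 CPM in frozen and FFPE liver, 50.2 and 36.6 in kidney, 33.2 and 49.4 in heart, and 38.1 and 41.1 in brain. FFPE liver was the highest of the 8 while frozen liver lay among the others, and the liver difference was 0.37 ± 0.24 (limma adjusted p = 0.309).

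Brain had more 5mC signal than the other organs on C8b and C6. C8b was 2.22-fold higher (log2 1.15 ± 0.29, limma adjusted p = 0.0114) and C6 1.83-fold higher (0.87 ± 0.30, adjusted p = 0.0488), so that 2 of the 9 were higher and 0 lower, while 8.61% of tested genes were higher and 12.8% lower (2238 and 3333 genes, and 1603 and 4875 after median centring). Both brain libraries were above all 6 others for each of these genes, as for 16.5% of tested genes. All 4 brain and heart libraries were also above all 4 kidney and liver libraries for each of them, as for 8.44% of tested genes. These organ comparisons use the same 8 libraries, so the rise of C8b in brain and its fall in liver are not independent. Without FFPE brain the C8b difference was 1.13 (adjusted p = 0.151) and the C6 difference 1.14 (adjusted p = 0.122), and without frozen brain they were 1.17 (adjusted p = 0.194) and 0.60 (adjusted p = 0.517). C6 was also not called without 1 of the heart or liver libraries, with no filter (adjusted p = 0.0603) or after median centring (0.0884).

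In heart 0 of the 9 were called (limma; 0.162% of tested genes higher and 1.97% lower), with differences from -0.26 (Hc) to 0.56 (C8b), and 0 of the 9 had an unadjusted p under 0.05, as 14.6% of tested genes did. In kidney 0 of the 9 were called (0.897% higher and 0.566% lower), with differences from -0.76 (C6) to 0.42 (Mbl2), and 2 had an unadjusted p under 0.05, as did 18.6% of tested genes. Without the FFPE kidney library, which leaves kidney to the frozen library, 2 members were lower in kidney. Liver against single organs gave 4 lower members against brain (C3, C6, C8b and Mbl2; 12.7% of tested genes lower and 15.8% higher). It gave 3 against heart (C3, C8b and Mbl2; 3.29% lower and 8.76% higher) and 1 against kidney (C3; 0.754% lower and 1.14% higher). No member was higher in any of these pairs. The adjusted p of Mbl2 against kidney was 0.0525, with a difference of -1.26. The single-organ calls rested on few libraries: 0 members were called against heart without either heart library or without frozen liver, and 0 against kidney without either heart library, either liver library or frozen kidney.

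**Figure D2:**
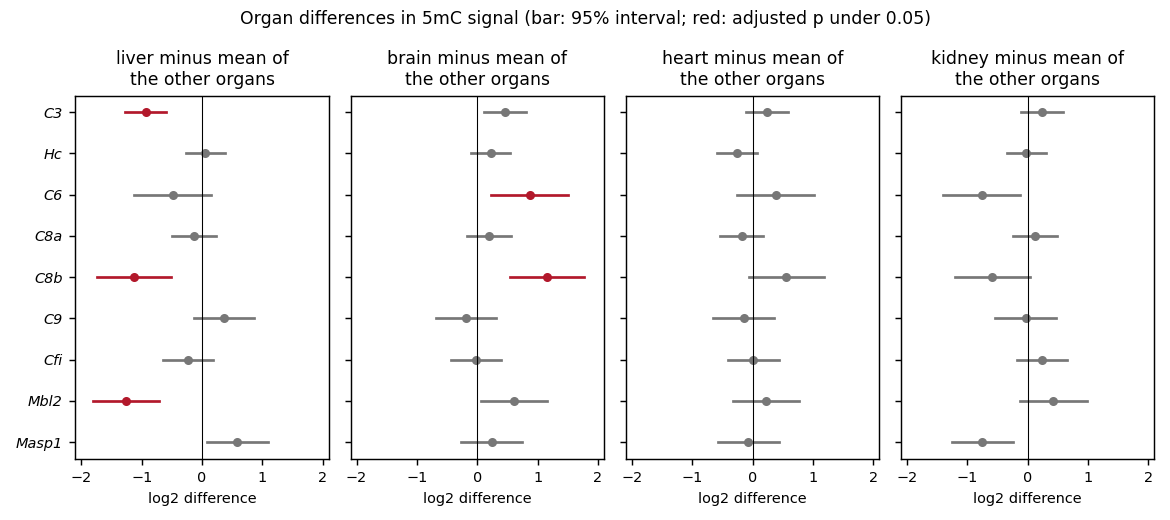
Log2 difference of each organ from the mean of the other 3 (horizontal axis) for the 9 genes, with a point for the estimate and a bar for its 95% interval, in red where the adjusted p was under 0.05. In liver C3, C8b and Mbl2 lie left of 0, in brain C6 and C8b right of it, and in heart and kidney 0 genes are red.

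The liver falls of C3, C8b and Mbl2 had the same sign in all 16 alternative analyses, but the calls did not all hold. Without the trend of the variance on the mean, 0 of the 25982 genes were called in liver, and the adjusted p became 0.0816 for C3, 0.0799 for C8b and 0.0828 for Mbl2. Without the frozen liver library the adjusted p was 0.0576 for C3 (difference -0.77) and 0.0786 for Mbl2 (-1.14), and without the FFPE liver library it was 0.237 for C8b (-0.82). After quantile normalization C8b had an adjusted p of 0.0542. Without frozen kidney, the library that stands apart, all 3 were called, with adjusted p = 0.000181 (C3), 0.00207 (C8b) and 0.00142 (Mbl2).

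**Figure D3:**
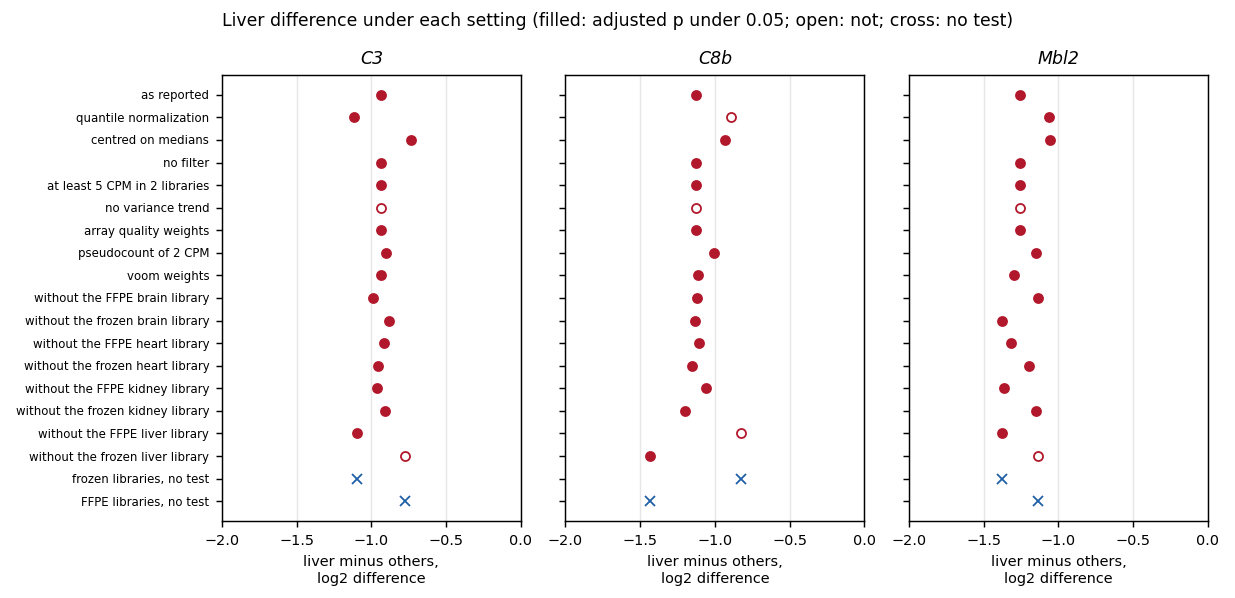
Liver difference (log2, horizontal axis) of C3, C8b and Mbl2 as reported, under each alternative analysis and within each preservation. Filled circles passed the adjusted p threshold, open circles did not and crosses have no test; every point lies below 0, from -1.44 to -0.74.

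FFPE and frozen tissue were compared over the 4 organs. Among the 9 genes 0 were called (limma; 0.62% of tested genes higher and 0.735% lower), and the median difference was 0.19, against 0.02 over all tested genes. Cfi was lower in FFPE in each organ, by 0.33 in brain, 0.47 in heart, 0.96 in kidney and 0.11 in liver. All 4 FFPE values lay below all 4 frozen ones, as for 1.84% of tested genes, with a fitted difference of -0.47 ± 0.17 and an adjusted p of 0.303. Within single organs the largest gap of FFPE minus frozen was 1.54, in kidney for C6. The next in size were that of Cfi in kidney, 0.96 in kidney for Masp1 and 0.92 in liver for C9.

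The rest of the pathway was read from lists of 42 other complement genes, all of which were tested. In liver 12 were lower and 1 was higher, beside 7.42% and 11.8% of all tested genes, with a median of -0.54. The lists were chosen with earlier results of these data known, so these counts are no independent test. Among the lower genes, C4b, C4a, Cfb and C2 lie together on chromosome 17 (34728139 to 34882100). C1ra and C1s1 lie together on chromosome 6 (124512621 to 124542392). The 12 are thus not 12 separate regions of the genome. Of the 16 genes that start the classical and lectin pathways, 7 were lower. C2 and C4b, which together form the C3-cleaving enzyme of these pathways, fell by 1.27 ± 0.33 (limma adjusted p = 0.0128) and 0.89 ± 0.20 (0.00554), and C4a by 0.79 ± 0.16 (0.00266). The proteases of the C1 complex C1ra and C1s1 fell by 0.83 (limma adjusted p = 0.0338) and 1.21 (0.0275). For each, 1 liver library lay above FFPE heart. C1ra had 18.5 CPM in frozen liver and 16.9 in FFPE heart, and C1s1 had 16.9 in FFPE liver and 16.5 in FFPE heart. The ficolin gene Fcnb fell by 1.90 (adjusted p = 0.0309), from 4 to 6 reads in liver and 7 to 28 elsewhere. The collectin gene Colec10 fell by 2.78 (adjusted p = 0.038), which rests on 0 reads in FFPE liver beside 23 in frozen liver and 9 to 66 elsewhere. The C1q chains, which bind antibody and are made mainly by macrophages, were not called, with C1qb at 1.14 ± 0.44 (limma adjusted p = 0.0799). Neither were Mbl1, the second mannose-binding lectin (-1.28, limma adjusted p = 0.208), and Masp2, the other lectin pathway protease (-0.61, adjusted p = 0.229). Mbl1 had 5 and 4 reads in frozen and FFPE liver, 5 and 3 in kidney, and 10 to 29 in brain and heart. C4a and C4b, C1ra and C1rb, and C1s1 and C1s2 are near-identical pairs, so reads may be split between the copies.

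Cfb, the factor B of the alternative pathway's C3-cleaving enzyme, fell 4.46-fold in liver (log2 -2.16 ± 0.36, limma adjusted p = 0.00071). It had 13 reads in each liver library and 32 to 93 in the others. Factor D (Cfd, 0.30, adjusted p = 0.38) and properdin (Cfp, 0.26, adjusted p = 0.814) were not called, so 1 of 3 alternative pathway genes was lower. In the terminal pathway C8g, the third C8 chain, fell by 2.94 ± 0.71 (limma adjusted p = 0.0089), from 1 and 2 reads in frozen and FFPE liver and 6 to 19 in the others. The sizes given for C8g, Colec10 and Mbl1, and for Vsig4 below, depend on the 0.5 reads added to each count, and no fold is read from them. C7 did not pass (-0.34, adjusted p = 0.314). Differences between the C8 chains other than that of C8b and C8a were not tested.

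Among 6 soluble regulators 2 were lower and 1 higher in liver, beside 7.42% and 11.8% of all tested genes. Vitronectin (Vtn), which keeps the membrane attack complex from inserting, fell 2.95-fold (-1.56 ± 0.22, limma adjusted p = 0.000225), from 45 and 37 reads in frozen and FFPE liver and 79 to 179 elsewhere. Cpn2, a subunit of the carboxypeptidase that inactivates complement peptides, fell by 0.98 (limma adjusted p = 0.00823). It had 21.2 and 50.2 CPM in frozen and FFPE liver and 52.6 to 83.2 elsewhere, so the fall rests mainly on frozen liver. Clusterin (Clu), another inhibitor of the attack complex, was 1.59-fold higher (0.67 ± 0.19, limma adjusted p = 0.0204). It had 53.6 and 71.0 CPM in frozen and FFPE liver, 47.5 and 53.2 in kidney, 39.5 and 45.9 in heart, and 23.6 and 31.5 in brain. Frozen liver was thus level with FFPE kidney, and brain was the lowest. C1 inhibitor (Serping1, -0.50, adjusted p = 0.278), the C4b-binding protein gene C4bp (-0.45, adjusted p = 0.432) and Cpn1, the catalytic subunit of that carboxypeptidase (-0.05, adjusted p = 0.896), were not called. Of 6 membrane regulators 0 were called, with Cd59a at -1.17 (limma adjusted p = 0.0759), Cd55 at -0.95 (0.175) and Cr1l at -0.90 (0.301). Beside the 7.42% lower of all tested genes, 0 of 6 does not set this list apart. Its median difference was -0.86, and 5 of the 6 lay below 0. Of 9 receptors only Itgax, the integrin chain of complement receptor 4, was called (-0.69, adjusted p = 0.0198). It had 25.9 and 35.8 CPM in frozen and FFPE liver, 27.8 and 31.0 in kidney, and 59.5 to 68.5 in brain and heart. Both kidney libraries lay below FFPE liver, so the low signal of Itgax was shared by kidney. Vsig4, the macrophage receptor for C3b, was at -0.97 (limma adjusted p = 0.417), C5ar2 at 0.56 (0.0575) and Itgam at -0.53 (0.0547). Vsig4 had 7 and 2 reads in frozen and FFPE liver and 4 to 20 elsewhere. In brain 9 of the 42 were higher and 1 lower, beside 8.61% and 12.8% of all tested genes.

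**Figure D4:**
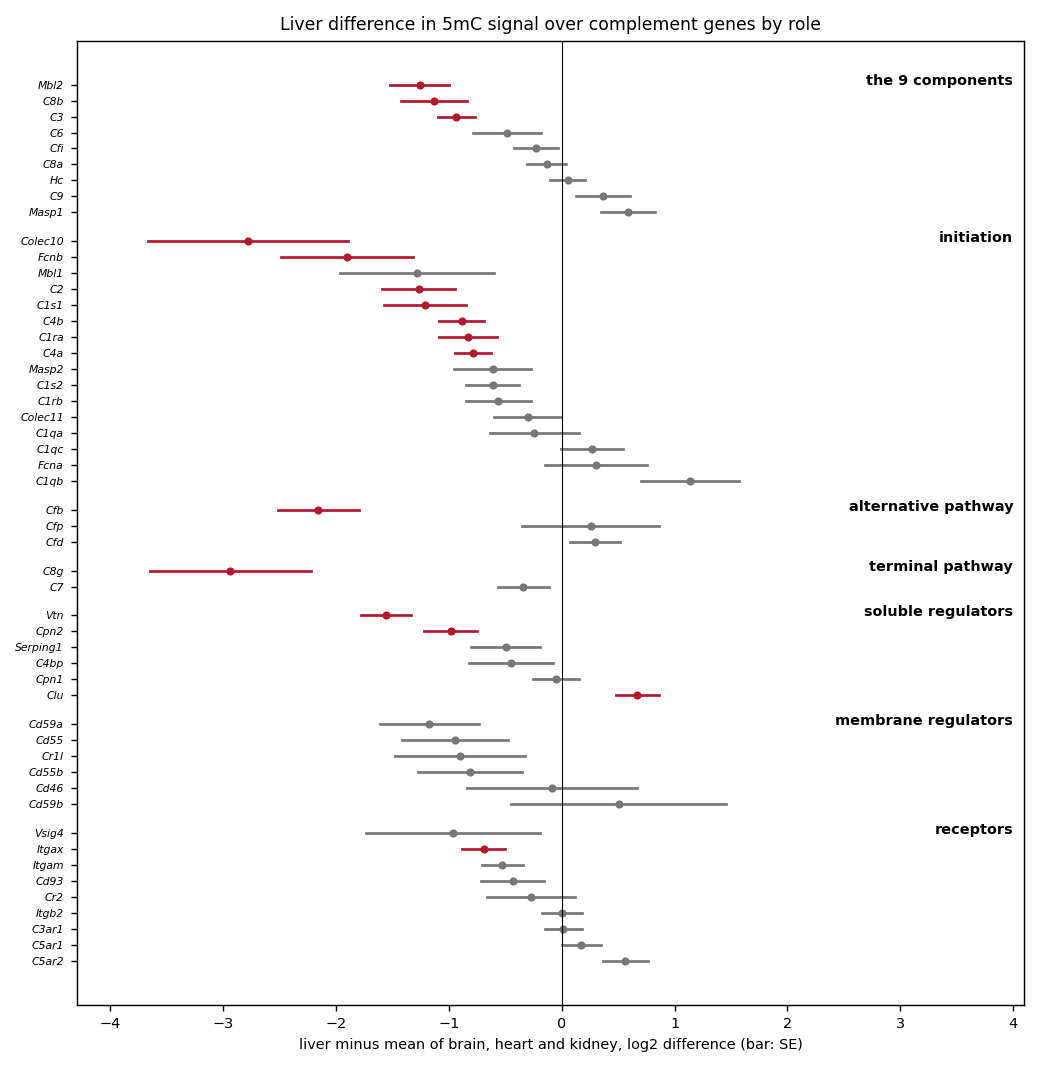
Liver minus the mean of brain, heart and kidney (log2, horizontal axis; bar: SE) for the 9 components and 42 other complement genes in groups by role, in red where the adjusted p was under 0.05. Of the 42, 12 are red below 0 and 1, Clu, above it. Of the 6 membrane regulators 0 are red, while 5 lie below 0.

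The number of lower genes among the 42 moved with single libraries: it was 3 without frozen liver, 6 without FFPE liver and 6 without frozen heart. It was 8 when FFPE heart was left out, 7 after quantile normalization and 0 without the variance trend. Cfb and Vtn kept their call in 15 of 16 alternatives, C4a, C4b and Cpn2 in 14, C8g in 12, C2, C1s1 and Clu in 11, Itgax in 9, and C1ra, Fcnb and Colec10 in 7.

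Genes beside the members were read for the same comparison. Hc, not called in liver itself, sits between Traf1, an adaptor of cytokine receptors, which fell by 1.18 (limma adjusted p = 0.0239), and AI182371, which fell by 0.83 (adjusted p = 0.0341). Next to C3, Gpr108 fell by 1.29 (adjusted p = 0.00421), while Tnfsf14, a cytokine of the tumour necrosis factor family, was at -0.25 (adjusted p = 0.436). Dab1, on the other side of C8b from C8a, was at 0.26 (adjusted p = 0.199). Rtp1 beside Masp1 was higher, by 0.83 (adjusted p = 0.00243). Of the 16 distinct genes next to a member that were no members themselves, 3 were lower and 1 higher in liver. Among genes whose centre lay within 500 kb of a member's centre, 0 of 9 were called around Mbl2 and 0 of 4 around C8b. The centre of Dab1 lies outside that window. Around C3, 1 of 29 was lower and 4 were higher, and around Hc 3 of 17 were lower and 1 higher. Around Masp1, 1 of 12 was lower and 3 higher, and around C8a 1 of 4, C8b itself, was lower. There were 2 higher genes of 11 around Cfi, 1 of 9 around C6 and 1 of 4 around C9, with 0 lower. Beside the 7.42% lower and 11.8% higher of all tested genes, windows this small do not set any member apart.

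**Figure D5:**
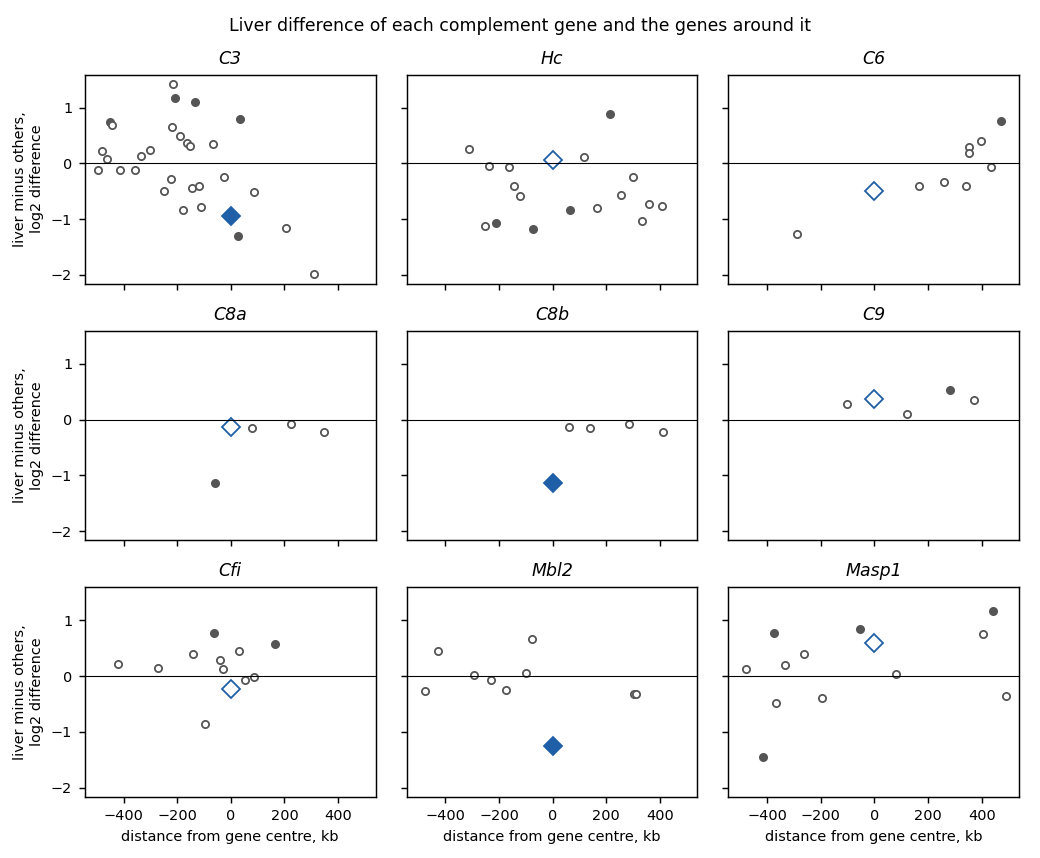
Liver difference (log2, vertical axis) of each complement gene (diamond) and of the tested genes with a centre within 500 kb (circles) against distance between gene centres in kb; filled symbols had an adjusted p under 0.05. The diamonds of C8b and Mbl2 are filled with no filled circle around them, and that of Hc is open between filled circles.

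The members varied among themselves. The mean of their signals, each centred on its own mean, ran from 0.33 and 0.26 in FFPE and frozen brain to -0.14 and -0.39 in FFPE and frozen liver. Kidney was at -0.05 and -0.14 in FFPE and frozen tissue, so frozen kidney was as low as FFPE liver. Across the 8 libraries, which are not independent samples of 1 group, the correlation of a member with the mean of the other 8 was highest for C8b (r = 0.78) and C3 (0.76). It was lowest for C9 (-0.36), Cfi (-0.22) and Masp1 (-0.12). Among the 11788 better covered genes (mean signal no lower than the median gene, predicted genes and pseudogenes left out), the 5 whose signal over the 8 libraries was most like the members' mean were Gpc5 (r = 0.99), Ttc12 (0.98), Frmpd2 (0.97), Aass (0.97) and Marchf1 (0.97). They are the top of 11788 correlations over 8 libraries, so high values follow from the search itself and are no test of likeness. Aass, a lysine breakdown enzyme, had 5.99 and 5.95 log2 CPM in frozen and FFPE brain and 4.79 and 5.29 in liver. Within each preservation the other organs lay between, while frozen kidney (5.19) was below FFPE liver.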

How the data were processed

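Per the submitters' processing notes, the tools were Bowtie2, featureCounts and limma and the build mm10. The sources used here do not give versions, counted feature, strand or pooling of replicates. The authors deposited log2 CPM values of 27179 genes. Their steps matched voom's form (0.5 added to each count) and gave whole reads for 100% of values (tolerance 1e-04). These reads were used only for depth, counting limits and the alternative with voom weights. Column names give no antibody or replicate number. Input was not analysed here, so enrichment over Input, copy number and yield of reads were not separated.

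The limma fit (R 4.3.3, limma 3.58.1; organ plus preservation, variance trend) had 5 coefficients, 3 residual and 13.1 prior degrees of freedom, on the 25982 genes that reached 1 CPM in 2 or more libraries (1197 removed). Benjamini-Hochberg adjustment ran over all tested genes of a comparison, with a threshold of 0.05. It was tested on simulated data. Alternatives changed scaling, filter (none, or 5 CPM), trend, weights, pseudocount (2 CPM) or left out 1 library; voom weights were added after seeing the data. Entrez IDs matched GRCm38.p6 for 25254 genes (92.9%), and coordinates are those of whole genes. Limits on reads are exact Poisson 95% limits and cover counting alone, because PCR duplicates are no separate molecules. The members, the gene lists and the rule for named genes were chosen with earlier results of these data known. The rule names all 9 members, every other complement gene called in liver, up to 3 uncalled genes per list with the largest difference, the nearest gene on each side, and the 5 genes most like the members' mean. Some genes of the list of soluble regulators are not reported here, and its counts and medians leave them out.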

Additional observations from a re-analysis of the deposited data

Results flagged for a closer look

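The liver difference had opposite signs in frozen and FFPE tissue for 3 of the 9 genes, each from 1 liver library against 3 others, and the difference between preservations was not tested. C9 was at -0.055 in frozen and 0.79 in FFPE tissue. Hc was at -0.055 and 0.16, and Cfi at -0.47 and 0.0088. In the fit over both preservations 0 of these 3 were called in liver.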

How the results depend on the processing

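No paired analysis was possible because the columns carry no replicate number and each organ and preservation has 1 column. With 1 library of an organ left out, the lone library is assumed to vary like the other organs. Without the variance trend, prior degrees of freedom fell from 13.1 to 1.88; the counts of genes higher and lower in liver and brain, and of members called in liver, in brain, against heart and against kidney, were all 0, with 1 member lower against brain. In liver, members called lower ranged from 1 to 4 and higher from 0 to 1 when 1 library was left out, and 1 (Masp1) was higher after median centring and with voom weights. Over all genes, those higher in liver numbered 1256 after quantile normalization and 4832 after centring (969 to 3863 with 1 library left out), and those lower 1251 and 1240 (492 to 3392). In brain, members called higher numbered 4 after quantile normalization, 1 after centring, 1 with no filter and 0 to 4 with 1 library left out. All genes higher in brain numbered 3877 with array weights, 3496 with a pseudocount of 2 CPM, 3891 with voom weights and 95 to 4710 with 1 library left out, and those lower 664 to 4431. In kidney 0 to 2 members were lower with 1 library left out. Against brain 2 to 4 members were lower with 1 library left out. Against heart the count was 1 after quantile normalization, 1 after centring and 0 to 3 with 1 library left out. Against kidney it was 0 after quantile normalization and with array weights, 2 at a minimum of 5 CPM, with the pseudocount and with voom weights, and 0 to 2 with 1 library left out; 1 member was higher after centring and with voom weights (0 to 1 with 1 library left out). The causes were not tested. The C8b and Mbl2 values in liver rest on 25 to 46 reads a library.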
